A study of Mus musculus with 8 samples.

Results

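The 7 genes of the mouse CDK inhibitor families, Cdkn1a, Cdkn1b, Cdkn1c, Cdkn2a, Cdkn2b, Cdkn2c and Cdkn2d, were described in single-cell transcriptomes of SN4741 cells. The members were chosen by gene symbol among the 31053 genes of the deposited matrices, and all 7 passed the filter on low counts in every comparison. SN4741 is a clonal mouse line from the embryonic substantia nigra, labelled as neural precursor cells of WT genotype, and it carries the heat-sensitive T antigen SV40Tag-tsA58 behind a tyrosine hydroxylase promoter. In the study its karyotype was unstable and mostly triploid, so the copy number of a member may differ from cell to cell. The control group was 4 libraries of cultures kept at 37 °C in 10% fetal bovine serum. The treated group was 4 libraries of cultures moved to 39 °C in 0.5% serum for 48 hours, which is the protocol meant to start differentiation, so temperature and serum cannot be told apart in any comparison. Levels are given as CPM, the counts of unique molecular identifiers (UMIs, 1 per captured transcript) divided by the TMM-scaled total of the library and brought to the common CPM scale. The matrices count the 3′ ends of transcripts, so levels were compared between samples of 1 gene and not between genes.

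CDK inhibitors are small proteins that slow the cell cycle by binding cyclin-dependent kinases. The CIP/KIP proteins p21, p27 and p57 (Cdkn1a, Cdkn1b and Cdkn1c) bind cyclin-CDK complexes of several kinds, while the INK4 proteins p16, p15, p18 and p19 (Cdkn2a, Cdkn2b, Cdkn2c and Cdkn2d) bind only Cdk4 and Cdk6 and keep them from cyclin D. Cdkn2a also encodes p19ARF, a second protein from another reading frame that inhibits Mdm2 and so protects p53. In neural precursors these genes are known for their part in the exit from the cell cycle. Large T antigen binds p53, which turns on Cdkn1a, and the Rb proteins, which Cdk4 and Cdk6 phosphorylate.

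In GENCODE M21 (GRCm38) Cdkn2a lies on chromosome 4 at 89274471-89294653 on the minus strand, Cdkn2b follows at 89306299-89311039 with 11645 bases and 0 annotated genes between them, and Cdkn2c lies farther along the chromosome at 109660876-109667189. Cdkn1a (chromosome 17, 29090976-29100727), Cdkn1b (chromosome 6, 134920401-134925513), Cdkn1c (chromosome 7, 143458339-143461050) and Cdkn2d (chromosome 9, 21288410-21291407) are each the only member on their chromosome. The 2 coding transcripts of Cdkn2a start 12461 bases apart and end within 70 bases of each other, so counts of 3′ ends add up the p16 and p19ARF messages. The antisense gene Gm44732 shares 892 bases with Cdkn1c and had 0 UMIs at either temperature. On the other strand AC167363.2 shares 1046 bases with Cdkn1a, and it is not among the genes of the matrices. Windows from 250 bases before to 50 bases after a RefSeq start (GRCm38.p6) were found for 6 of the 7 members, 9 windows in all, with none for Cdkn1c. They were searched on both strands for 4 motifs, chosen with the windows in view: the p53 response element (20 bases, at most 1 mismatch), an E2F-like site (TTTNNCGC), the cell-cycle homology region (TTTGAA) and the CCAAT box (CCAAT). The first 2 are shown here for the members they fell on, since p53 and E2F are the classic regulators of Cdkn1a and of the ARF start. The p53 element, held by 29 of 32851 mouse promoter windows (0.0883%), matched the upstream start of Cdkn1a and no other window of the family, with its first base at position -51 counted from the start. The E2F-like site, held by 5.17% of the windows, matched both starts of Cdkn2a at positions -244 and -99, and no match overlapped another motif. The cell-cycle homology region, held by 17.9% of windows, matched Cdkn2b and no other window of the family. The CCAAT box, held by 37.4%, matched Cdkn1b (3 matches), the inner start of Cdkn2a, 1 window of Cdkn2c and the window of Cdkn2d. Capitals mark the matches of the p53 element and the E2F-like site, and each window is written on the strand of the gene.
Cdkn1a, chr17:29090729-29091028, plus strand: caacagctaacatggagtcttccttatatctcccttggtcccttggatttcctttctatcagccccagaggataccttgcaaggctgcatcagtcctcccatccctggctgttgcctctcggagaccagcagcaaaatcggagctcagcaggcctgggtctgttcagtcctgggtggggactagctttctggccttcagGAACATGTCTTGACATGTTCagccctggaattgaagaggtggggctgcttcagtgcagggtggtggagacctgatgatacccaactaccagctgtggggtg
Cdkn2a, inner start, chr4:89282143-89282442, minus strand: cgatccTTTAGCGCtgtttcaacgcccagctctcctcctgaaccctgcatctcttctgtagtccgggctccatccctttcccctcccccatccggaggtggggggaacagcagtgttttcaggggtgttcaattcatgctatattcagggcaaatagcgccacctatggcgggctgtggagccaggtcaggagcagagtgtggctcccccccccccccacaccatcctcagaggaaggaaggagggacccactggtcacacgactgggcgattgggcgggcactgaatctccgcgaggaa
Cdkn2a, outer start, chr4:89294570-89294869, minus strand: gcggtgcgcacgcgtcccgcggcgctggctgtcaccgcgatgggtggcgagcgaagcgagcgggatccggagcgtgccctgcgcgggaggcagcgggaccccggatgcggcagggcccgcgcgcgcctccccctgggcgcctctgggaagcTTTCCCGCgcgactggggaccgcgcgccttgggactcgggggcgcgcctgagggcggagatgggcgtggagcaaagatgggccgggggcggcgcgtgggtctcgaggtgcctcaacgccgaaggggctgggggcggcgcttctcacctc

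The libraries held 22988911 to 33652656 UMIs, and 18351 of 19125 cells passed the study's cell filter, 985 to 3494 per library. Replicate 1 at 39 °C stood apart, with the fewest kept cells and the highest median of 16665 UMIs per cell, against 6676 to 15413 in the other 7 libraries. Pairs of libraries shared 0 to 5 cell barcodes. Of the 7 neural precursor markers, Nes, Sox2 and Vim were detected in every library, while Msi1, Pax6, Fabp7 and Sox1 had at most 10 UMIs per temperature. Among these markers only the first 3 can therefore bear on the label. Their levels with no TMM scaling were 430 to 538 CPM at 37 °C and 105 to 117 at 39 °C for Nes, 52.0 to 57.2 and 72.6 to 80.7 for Sox2, and 5145 to 5445 and 5002 to 5617 for Vim. The 7 precursor markers summed to 5638 to 6013 CPM at 37 °C and 5191 to 5803 at 39 °C. Most of that sum was Vim, so its size beside the sums of other lists says little about cell type. The 6 mesenchymal markers summed to 2070 to 2131 CPM (with no TMM scaling) at 37 °C and 864 to 890 at 39 °C. Most of that was Col1a1 (980 to 1061 and 570 to 594 CPM) and Col1a2 (659 to 677 and 178 to 190). The 5 neuron markers summed to 63.1 to 68.1 and 38.1 to 40.1. The 7 immune, endothelial and blood markers summed to 17.6 to 21.4 and 30.8 to 37.4, mostly Cd68, with Cdh5 and Hbb-bs at 0 UMIs. The 6 glial markers summed to at most 0.931, with Olig1, Olig2 and Sox10 at 0. The part of these shifts in the differences described next was not tested.

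Between the temperatures, 3 members were higher at 39 °C (Cdkn1a, Cdkn1b and Cdkn2c), 3 were lower (Cdkn1c, Cdkn2a and Cdkn2d), and Cdkn2b did not pass the test. Passing means an adjusted p under 0.05 in edgeR's quasi-likelihood test on the summed counts of each library, with Benjamini-Hochberg adjustment over all 15810 genes tested. By that rule 62% of all genes passed, 31.5% higher and 30.5% lower, so a count of 6 of 7 is near the background of this comparison. Stricter limits were taken from the study's bulk RNA-seq, tested there with DESeq2 (adjusted p below 0.01, log2 fold change past 1.5 in either direction). Under them 0 of 7 members passed in these summed single-cell counts, beside 5.83% of genes. Nothing in the labels says that the replicates were separate cultures, so the p-values measure the spread between these libraries, which edgeR shares in part over genes. A library sum cannot tell fewer cells with a transcript from fewer transcripts per cell.

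Among the CIP/KIP genes, Cdkn1a, whose product p21 carries the arrest that p53 sets off, was at 1357, 1163, 1225 and 1307 CPM in replicates 1 to 4 at 37 °C and at 2050, 2334, 2242 and 2213 CPM at 39 °C. Every 39 °C library lay above every 37 °C library. The mean rose from 1263 ± 86.2 to 2210 ± 118 CPM (SD, n = 4), 1.75-fold, with a log2 fold change of 0.81 (SE 0.0625, adjusted p = 1.15e-09). Cdkn1b encodes p27, which accumulates in cells deprived of growth factors mostly through slower protein turnover. Its levels were 62.7, 61.1, 55.5 and 59.0 CPM at 37 °C and 70.5, 67.4, 69.0 and 58.2 CPM at 39 °C. Replicate 4 at 39 °C was inside the 37 °C range, while the other 3 lay above it. The log2 fold change of Cdkn1b was 0.15 (SE 0.0578, adjusted p = 0.0281), and the call was lost in 9 of 20 alternatives, 5 of which left out a single library (adjusted p 0.132 without 37 °C replicate 3, 0.0689 without 37 °C replicate 4, and 0.0919, 0.0685 and 0.0883 without 39 °C replicates 1, 2 and 3). Cdkn1c, the imprinted gene of p57, was rare, with 321 UMIs over the 37 °C libraries and 165 over the 39 °C libraries. It was at 3.26, 2.91, 2.80 and 2.49 CPM at 37 °C and 2.38, 1.17, 1.66 and 1.73 CPM at 39 °C. The groups did not overlap, though replicate 1 at 39 °C came close to replicate 4 at 37 °C. The level of Cdkn1c fell by 0.76 on the log2 scale (SE 0.166, adjusted p = 5.09e-04).

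Among the INK4 genes, Cdkn2c, which encodes p18, rose and Cdkn2d, which encodes p19INK4d, fell, each with 4 libraries of a temperature apart from the other 4. Cdkn2c was at 35.7, 35.6, 37.3 and 31.5 CPM at 37 °C and 73.0, 69.7, 72.4 and 71.5 CPM at 39 °C, and its 2.04-fold difference (log2 fold change 1.03, SE 0.0514, adjusted p = 1.78e-12) was the largest rise in the family. Cdkn2d was at 41.5, 45.2, 46.2 and 49.1 CPM at 37 °C and 15.5, 16.9, 16.2 and 16.2 CPM at 39 °C. Its 2.80-fold fall (log2 fold change -1.48, SE 0.0572, adjusted p = 4.35e-14) was the largest change of any member, and 8.46% of the genes tested had a larger one in either direction. Cdkn2a, the gene of p16 and p19ARF, was at 1410, 1371, 1410 and 1399 CPM at 37 °C and 991, 984, 1075 and 994 CPM at 39 °C. It fell in a narrow range of libraries, by 0.47 on the log2 scale (SE 0.0523, adjusted p = 2.06e-07), and replicate 3 was the highest of the 39 °C libraries. Its neighbour Cdkn2b, the p15 gene that responds to TGF-beta, was at 132, 139, 136 and 140.2 CPM at 37 °C and 155, 140.3, 148 and 141 CPM at 39 °C. The lowest 39 °C library was 140.3 and the highest 37 °C library 140.2, so the groups met without crossing. The difference of 0.09 on the log2 scale (95% interval -0.02 to 0.21, adjusted p = 0.0924) did not pass, but it did under scaling by library totals (adjusted p = 0.0288) or the upper quartile (0.0320). In all, 6 of 7 members had groups that did not overlap, Cdkn2b included, beside 56.7% of all genes (28.7% higher, 28% lower at 39 °C).

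**Figure D1:**
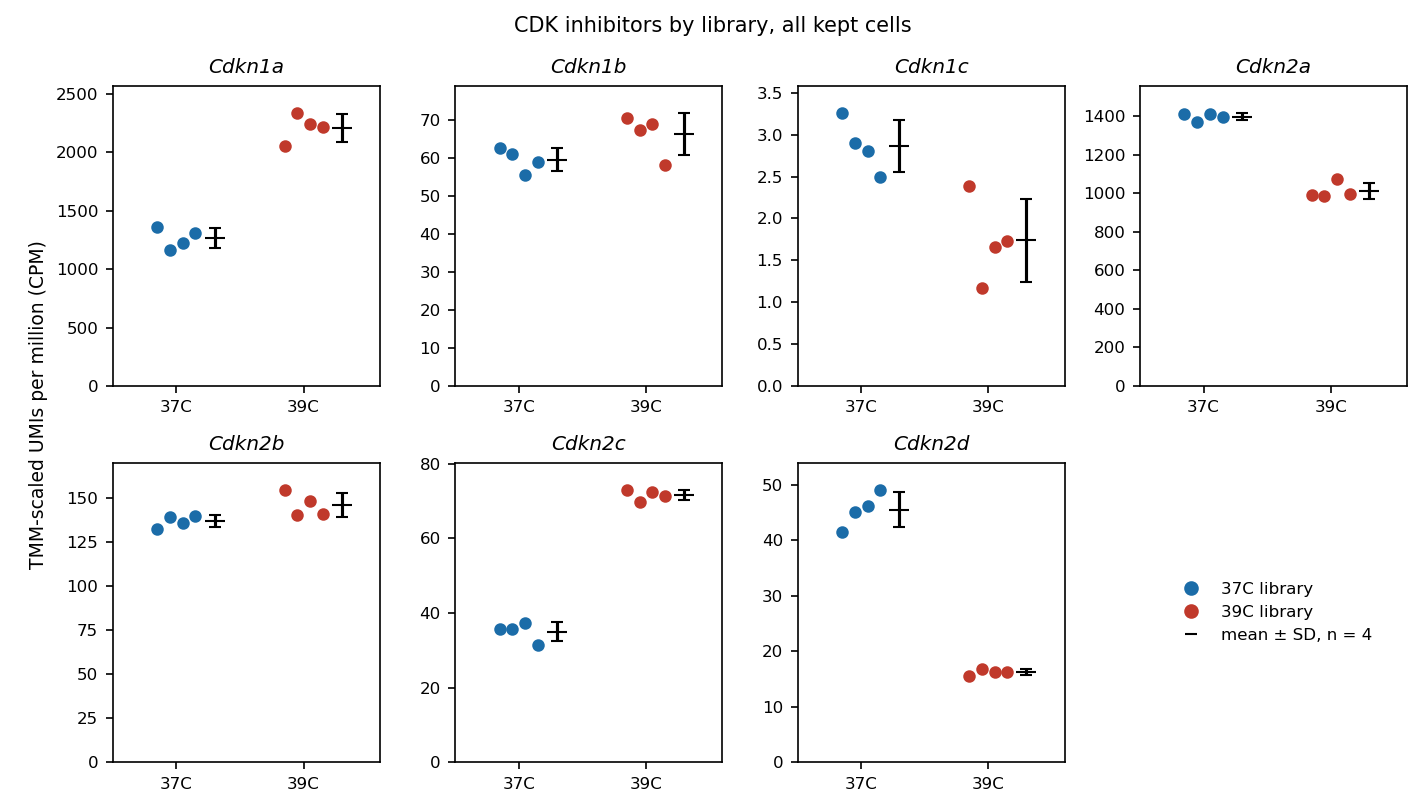
Level of each CDK inhibitor in the 8 libraries, in TMM-scaled CPM on a linear axis from 0, with 37 °C in blue, 39 °C in red and black marks for mean ± SD (n = 4). The 39 °C libraries of Cdkn1a and Cdkn2c lie well above the 37 °C ones, those of Cdkn1c, Cdkn2a and Cdkn2d lie below, and those of Cdkn1b and Cdkn2b lie close to them.

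To set these differences beside the cell cycle, cells were divided by Mki67, the proliferation marker that is made in S, G2 and mitosis. With cells thinned to 5000 UMIs, 41.3, 42.7, 45.6 and 47.7% of cells had a Mki67 UMI at 37 °C, and 3.79, 4.19, 4.75 and 5.39% at 39 °C. Thinning left out the shallower cells, 668 of 8550 at 37 °C and 1668 of 9801 at 39 °C. In 39 °C replicate 4 it left out 1009 of 3494, so thinned values describe the deeper cells only. The groups were far apart (44.3 ± 2.88% and 4.53 ± 0.695%), and the two-sided exact permutation test over 70 assignments gave p = 0.0286, the smallest it can give with 4 against 4. Without thinning the shares were 56.0 ± 3.55% and 6.26 ± 0.842%, and these full-depth classes were used for the sums. The classes differed in more than Mki67. At 37 °C positive cells had a median of 14474 UMIs (mean over libraries) and negative cells 10635, and 48.4 ± 4.83% of the negative cells were scored as S phase and 46.6 ± 4.77% as G1. At 39 °C 88.6 ± 1.34% of the negative cells were scored as G1. A cell with 0 Mki67 UMIs is therefore not always a cell outside the cycle, least of all at 37 °C. In 1 alternative Top2a UMIs also made a cell positive, which gave 74.6 ± 2.88% positive cells at 37 °C and 25.5 ± 5.36% at 39 °C. Only 15.7 ± 1.22% of cells were scored as S or G2M at 39 °C, so this wider class also took in cells scored as G1. Calls that change under it therefore compare other sets of cells.

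In Mki67-negative cells, the difference between temperatures for Cdkn2d did not pass the test, while the rises of Cdkn1a and Cdkn2c and the fall of Cdkn2a were still there. The test found 3 members higher and 2 lower at 39 °C, beside 56.8% of 15040 genes passing in this class (29.7% higher, 27.1% lower). Cdkn2d in these cells was at 15.3, 16.3, 14.4 and 15.5 CPM at 37 °C and 14.4, 15.3, 14.7 and 14.5 CPM at 39 °C. The groups overlapped, and the difference of -0.05 had a 95% interval of -0.22 to 0.13 on the log2 scale (adjusted p = 0.596). Cdkn2c was at 33.9, 27.3, 31.1 and 24.6 CPM at 37 °C and 76.6, 71.6, 74.3 and 73.1 CPM at 39 °C, a rise of 2.54-fold (log2 fold change 1.34, SE 0.0705, adjusted p = 6.72e-13). All 4 of its 39 °C libraries lay above all 4 of its 37 °C libraries, and 52% of genes did not overlap in this class (27.3% higher, 24.7% lower). Cdkn1a rose by a log2 fold change of 0.82 (SE 0.0655, adjusted p = 4.92e-10), close to its value in all cells, and Cdkn2a fell by 0.60 (SE 0.0558, adjusted p = 5.26e-09). Cdkn1b passed here with 0.27 (SE 0.0665, adjusted p = 0.00167), again with overlapping groups, and Cdkn1c with -0.78 (SE 0.222, adjusted p = 0.00490, 116 and 143 UMIs). The call of Cdkn1b was lost when Top2a UMIs also made a cell positive (0.17, adjusted p = 0.0632), and that of Cdkn1c with cells thinned to 5000 UMIs (-0.74, adjusted p = 0.0565). Cdkn2b did not pass, with a difference of 0.01 (95% interval -0.11 to 0.13, adjusted p = 0.867).

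In Mki67-positive cells, 2 members were higher at 39 °C and 3 lower, beside 33.5% of 14405 genes passing (15% higher, 18.6% lower). Cdkn1a was at 1366, 1168, 1248 and 1327 CPM at 37 °C and 1683, 1860, 1770 and 1875 CPM at 39 °C, so cells with Mki67 transcripts also held more Cdkn1a at 39 °C (log2 fold change 0.51, SE 0.0723, adjusted p = 1.17e-06). No library of one temperature fell in the range of the other, which held for 35.5% of genes in this class (14% higher, 21.5% lower). Cdkn2d was at 61.3, 62.7, 65.3 and 71.0 CPM at 37 °C and 29.8, 39.9, 34.7 and 40.4 CPM at 39 °C, and it fell by 0.82 (SE 0.0966, adjusted p = 3.78e-08) with no overlap. Cdkn2a fell by 0.54 (SE 0.0736, adjusted p = 5.36e-07) and Cdkn2b by 0.37 (SE 0.0758, adjusted p = 2.29e-04), both without overlap, though Cdkn2b differed by only -0.03 (adjusted p = 0.745) when Top2a UMIs also made a cell positive. Cdkn2c was at 38.0, 41.0, 41.8 and 36.4 CPM at 37 °C and 38.9, 52.3, 52.9 and 55.3 CPM at 39 °C. Replicate 1 at 39 °C, the library with the fewest UMIs in all and the highest median per cell, was inside the 37 °C range while the other 3 lay above it, and the difference was 0.38 (SE 0.0965, adjusted p = 0.00252). Cdkn1b differed by 0.01 (95% interval -0.19 to 0.21, adjusted p = 0.936). Cdkn1c could not be compared closely at this depth, since 13 of its 22 UMIs in positive cells at 39 °C came from replicate 1 and 7 from replicate 2, and its interval ran from -1.03 to 1.06. The positive cells themselves differed between temperatures. At 37 °C 59.5 ± 3.13% of them were scored as G2M and 6.24 ± 0.785% as G1, against 47.5 ± 10.7% and 19.7 ± 8.93% at 39 °C, and the part of this in the differences was not tested.

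**Figure D2:**
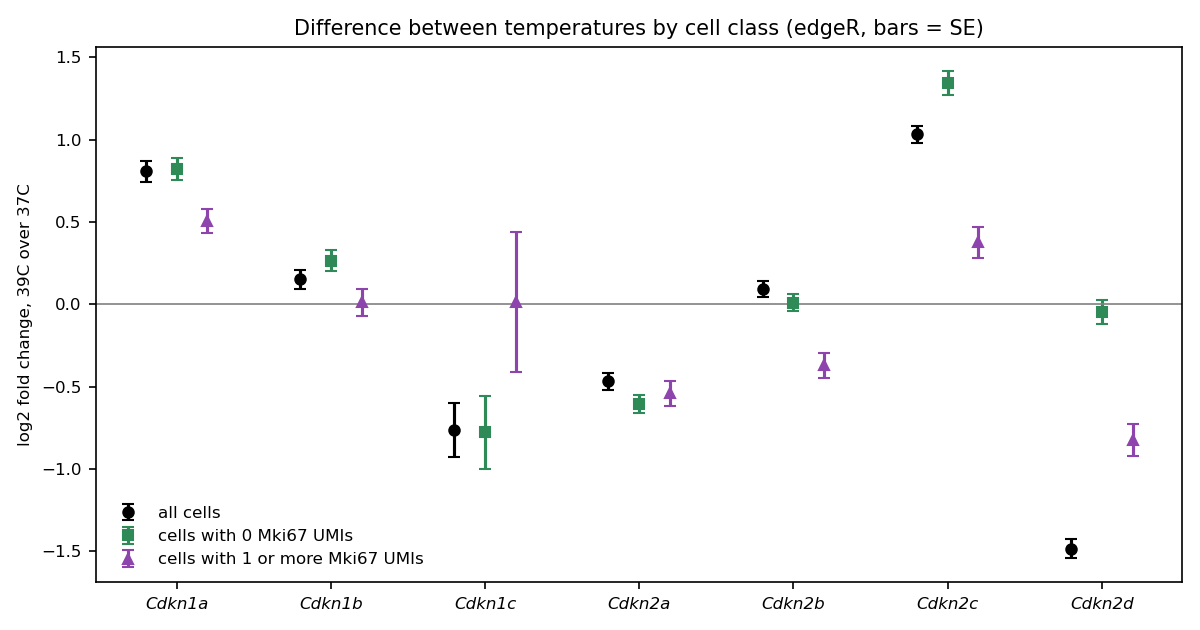
Log2 fold change of 39 °C over 37 °C for each CDK inhibitor, with standard errors, in all cells (circles), cells with 0 Mki67 UMIs (squares) and cells with 1 or more (triangles). For Cdkn2d the value is -1.48 in all cells and -0.05 in Mki67-negative cells, while for Cdkn2c it is 1.03, 1.34 and 0.38 in the 3 sets.

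Within each library, the cells with Mki67 UMIs were then set against the cells without. At 37 °C Cdkn2d was 4.24-fold higher in positive cells (log2 fold change 2.08, SE 0.0592, adjusted p = 1.04e-80), from 15.4 ± 0.784 to 65.1 ± 4.28 CPM (SD, n = 4). It was higher in 4 of 4 libraries, as were 26% of genes (20.8% were lower in 4 of 4), and was the 1 member past the stricter limits, which 1.84% of genes passed. Cdkn2c was 1.34-fold higher (log2 fold change 0.42, SE 0.0566, adjusted p = 5.48e-11) and Cdkn1b 1.13-fold (0.17, SE 0.0441, adjusted p = 6.95e-04), both in 4 of 4 libraries. With Top2a UMIs also making a cell positive these became 0.11 (adjusted p = 0.193) and -0.02 (adjusted p = 0.797), and upper quartile scaling also ended the call of Cdkn1b (0.09, adjusted p = 0.102). Cdkn2a fell by 0.25 (SE 0.0227, adjusted p = 5.60e-21) and Cdkn2b by 0.20 (SE 0.0330, adjusted p = 1.06e-07), with positive cells lower in 4 of 4 libraries. Cdkn1a did not pass, at 1277 ± 87.8 CPM in positive and 1286 ± 95.3 CPM in negative cells, and its difference of -0.01 had an interval of -0.06 to 0.04 (adjusted p = 0.799). It passed as lower in 3 alternatives, with -0.09 under upper quartile scaling, -0.05 with library totals only and -0.06 with Top2a. Altogether 3 members were higher and 2 lower in positive cells, beside 35% of 14745 genes passing (19.8% higher, 15.3% lower).

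At 39 °C the same contrast gave 1 member higher and 4 lower, beside 28% of genes passing (13.1% higher, 14.9% lower). Cdkn2d was again higher in positive cells in 4 of 4 libraries, as were 15.8% of genes (24.4% were lower in 4 of 4), by 2.48-fold (log2 fold change 1.31, SE 0.110, adjusted p = 9.99e-23). Cdkn2c, higher in positive cells at 37 °C, was lower in them at 39 °C in 4 of 4 libraries, at 73.9 ± 2.10 CPM in negative and 49.9 ± 7.44 CPM in positive cells (log2 fold change -0.54, SE 0.0799, adjusted p = 2.11e-09), a call lost with cells thinned to 5000 UMIs (-0.33, adjusted p = 0.0787). Cdkn1a was also lower in positive cells in every library, by 0.33 (SE 0.0241, adjusted p = 5.00e-28), as were Cdkn2b, by 0.58 (SE 0.0567, adjusted p = 3.16e-18), and Cdkn2a, by 0.19 (SE 0.0279, adjusted p = 1.29e-09), the last lost with Top2a (-0.02). Cdkn1b differed by -0.09 (interval -0.27 to 0.09, adjusted p = 0.430), passing with Top2a (-0.12, adjusted p = 0.0287), and Cdkn1c by 0.90 (interval -0.05 to 1.85, adjusted p = 0.0705). The latter rested on single libraries, going to -0.02 without 39 °C replicate 1 and to 1.42 (adjusted p = 0.00323) without replicate 3 and 1.32 (adjusted p = 0.0101) without replicate 4.

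The difference between the classes itself differed between temperatures for 5 of the 7 members, all of them in the same direction, beside 13.3% of genes passing (7.82% lower, 5.45% higher). The positive-minus-negative difference at 39 °C was below that at 37 °C by 0.97 on the log2 scale for Cdkn2c (SE 0.0975, adjusted p = 1.64e-16), which passed under all 21 alternatives tried for it. The values were -0.77 for Cdkn2d (SE 0.117, adjusted p = 2.37e-08), -0.38 for Cdkn2b (SE 0.0666, adjusted p = 1.5e-06) and -0.32 for Cdkn1a (SE 0.0327, adjusted p = 3.15e-16). Of these, Cdkn2b and Cdkn1a lost the call when Top2a UMIs also made a cell positive (0.06 and -0.03), and Cdkn2d lost it when cells were thinned to 5000 UMIs (-0.43, adjusted p = 0.161). Cdkn1b was just past the limit (-0.26, SE 0.0854, adjusted p = 0.0252) and missed it in 12 of 21 alternatives, among them the 3 other scalings and leaving out 37 °C replicate 3 or 4 or 39 °C replicate 1 or 2 (adjusted p 0.0581, 0.0739, 0.0545 and 0.176). Cdkn2a differed by 0.06 (interval -0.03 to 0.15, adjusted p = 0.302), but it passed in 6 alternatives. The value was 0.26 when Top2a UMIs also made a cell positive (adjusted p = 1.34e-17), up to 0.16 under those 3 scalings (adjusted p = 1.65e-04 with library totals only), 0.11 with the filterByExpr filter (adjusted p = 0.0442) and 0.10 without 39 °C replicate 1 (adjusted p = 0.0157). Cdkn1c differed by 0.76 (interval -0.27 to 1.80, adjusted p = 0.268), with -0.14 without 39 °C replicate 1 and 1.28 (adjusted p = 0.0338) without replicate 3.

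**Figure D3:**
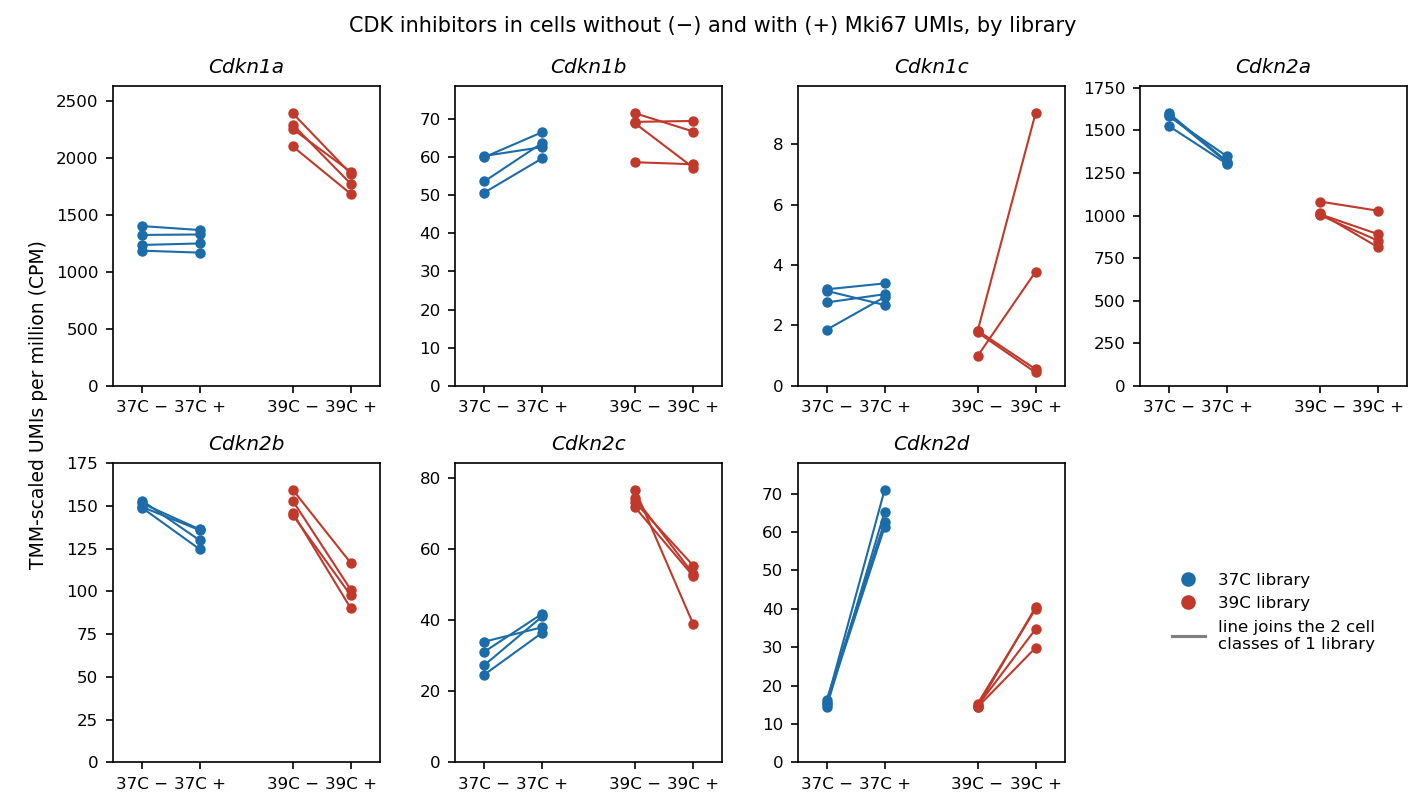
Level of each CDK inhibitor in cells without and with Mki67 UMIs, in TMM-scaled CPM on a linear axis from 0, with a line joining the 2 classes of each library. For Cdkn2c the 4 lines go up at 37 °C and down at 39 °C, for Cdkn2d they go up at both, and for Cdkn1a they are near level at 37 °C and go down at 39 °C.

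Phases called from gene scores gave a second reading of the cycle, not fully separate from the first since the G2M list holds Mki67. None of the members is in the lists. Cdkn2d was at 14.8 ± 0.617 CPM in G1, 21.4 ± 0.905 in S and 89.1 ± 5.07 in G2M at 37 °C (SD, n = 4), so G2M cells held 6.04-fold more than G1 cells (log2 fold change 2.59, SE 0.0697, adjusted p = 5.25e-47). At 39 °C the 3 phases were at 14.4 ± 0.600, 18.7 ± 3.33 and 48.2 ± 8.83 CPM, a difference of 3.15-fold between G2M and G1 (1.66, SE 0.125, adjusted p = 2.58e-19). The G1 levels of the 2 temperatures overlapped, while every 39 °C library was below the 37 °C libraries in G2M. Cdkn1a was lowest in S, at 1053 ± 78.5 CPM against 1500 ± 119 in G1 and 1402 ± 71.5 in G2M at 37 °C. It fell from G1 to S by 0.51 at 37 °C (SE 0.0277, adjusted p = 2.87e-27) and by 0.48 at 39 °C (SE 0.0282, adjusted p = 5.32e-25), in 4 of 4 libraries each. In each phase its 39 °C libraries lay above its 37 °C libraries, with a mean of 2310 ± 126 CPM in G1. The shares of all genes without overlap, or with 1 direction in 4 of 4 libraries, were not counted by phase. In all cells 56.7% of genes did not overlap between temperatures, so these separations are given as a description.

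The remaining members fell into other patterns over the phases. Cdkn1b was lowest in S at 37 °C (45.0 ± 3.88 CPM, against 60.1 ± 6.23 in G1 and 76.8 ± 1.35 in G2M), with S below and G2M above G1 in 4 of 4 libraries (adjusted p = 1.62e-09 and 1.51e-08). At 39 °C its 3 phases were at 67.3 ± 5.56, 62.6 ± 5.19 and 66.0 ± 9.88 CPM, and neither difference from G1 passed. In S it passed as lower under 3 other cell filters, with -0.15 for no cell filter (adjusted p = 0.0407), -0.15 for no upper limit on genes (0.0434) and -0.18 for a limit of 5000 genes (0.0363). Cdkn2c was higher in G2M than in G1 at 37 °C, by 0.41 (SE 0.0686, adjusted p = 5.59e-07), and lower at 39 °C, by -0.26 (SE 0.0940, adjusted p = 0.0332), the latter lost in 8 of the 19 alternatives tried, among them leaving out 39 °C replicate 2 (adjusted p = 0.0906) or 3 (0.241). Cdkn2a was lower in G2M than in G1 at both temperatures, by -0.42 and -0.49, as was Cdkn2b, by -0.27 and -0.68. In G1 cells alone Cdkn2c was at 32.7 ± 6.24 CPM at 37 °C and 74.7 ± 1.15 at 39 °C, and Cdkn2a at 1643 ± 28.8 and 1032 ± 42.2, without overlap. As above, no share of all genes was counted by phase for overlap or for direction in 4 of 4 libraries. In S against G1, 1 member was higher and 5 lower at 37 °C, beside 45% of 14172 genes passing (21.2% higher, 23.8% lower), and 1 higher and 3 lower at 39 °C, beside 37.3% (18% higher, 19.3% lower). In G2M against G1 the counts were 3 higher and 3 lower at 37 °C, beside 43.5% (20.8% higher, 22.7% lower), and 1 higher and 4 lower at 39 °C, beside 26.5% (12.5% higher, 14% lower). Cdkn2d alone passed the stricter limits in G2M, beside 3.51% of genes at 37 °C and 2.94% at 39 °C. Besides the call of Cdkn2c in G2M at 39 °C given above, leaving out 1 library ended 3 more, that of Cdkn2d in S at 39 °C (adjusted p = 0.146 without 39 °C replicate 2), that of Cdkn2c in S at 37 °C (0.657 and 0.0646 without 37 °C replicates 1 and 3) and that of Cdkn1a in G2M at 37 °C (0.156 without 37 °C replicate 1). The fall of Cdkn2a in S at 37 °C was lost with DESeq2 (-0.13, adjusted p = 0.182). Phase scores can pick up free RNA and depth, and that was not tested.

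**Figure D4:**
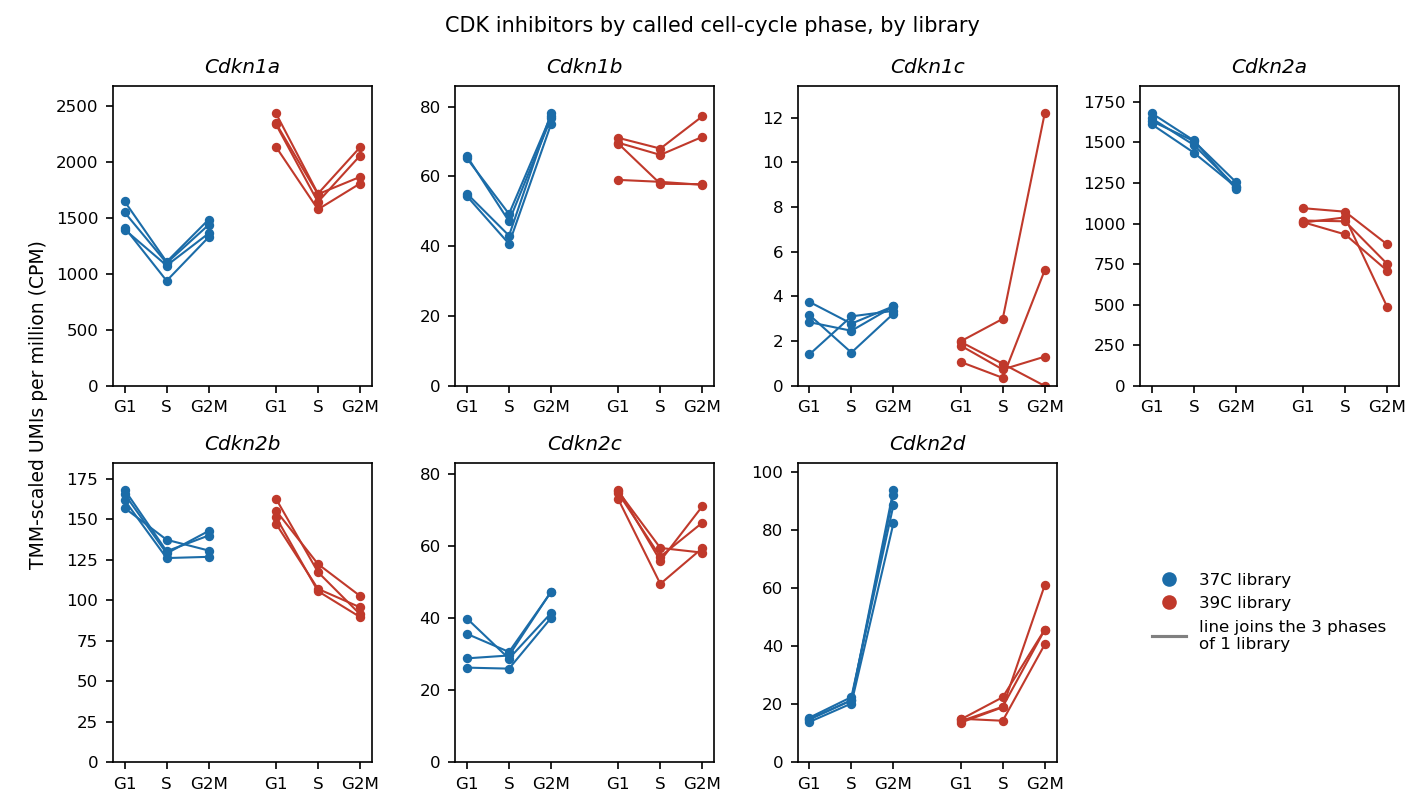
Level of each CDK inhibitor in cells called G1, S or G2M, in TMM-scaled CPM on a linear axis from 0, with a line joining the 3 phases of each library. Cdkn2d climbs to 89.1 CPM in G2M at 37 °C and 48.2 at 39 °C, and Cdkn1a dips in S at both temperatures.

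The number of Mki67 UMIs per cell, counted after thinning with the shallower cells left out, gave a graded view. At 37 °C the level of Cdkn2d was 17.9 ± 1.44 CPM in cells with 0 Mki67 UMIs, 39.6 ± 2.98 with 1, 67.4 ± 8.17 with 2 and 107 ± 12 with 3 or more (SD, n = 4). Cdkn1b went from 56.1 ± 6.91 CPM at 0 and 53.4 ± 3.87 at 1 to 67.0 ± 3.70 at 2 and 89.6 ± 5.56 at 3 or more, and Cdkn2c from 31.3 ± 3.53 to 34.2 ± 6.0, 41.5 ± 7.34 and 51.2 ± 6.79 CPM. Both were therefore above the 0-UMI level mainly in the cells richest in Mki67, and for Cdkn2c neighbouring bins lay within their spread. Cdkn2a went the other way, from 1559 ± 6.52 to 1348 ± 63.8, 1265 ± 10.3 and 1229 ± 25.2 CPM, while Cdkn1a stayed between 1182 and 1317 CPM. At 39 °C few cells reached the upper bins, and 2 to 3 libraries had the 20 cells needed. There Cdkn2d was at 15.6 ± 1.46 CPM with 0 Mki67 UMIs (n = 4) and 76.1 ± 15.3 with 3 or more (n = 3), and Cdkn2c at 73.3 ± 2.62 and 62.2 ± 33.2.

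**Figure D5:**
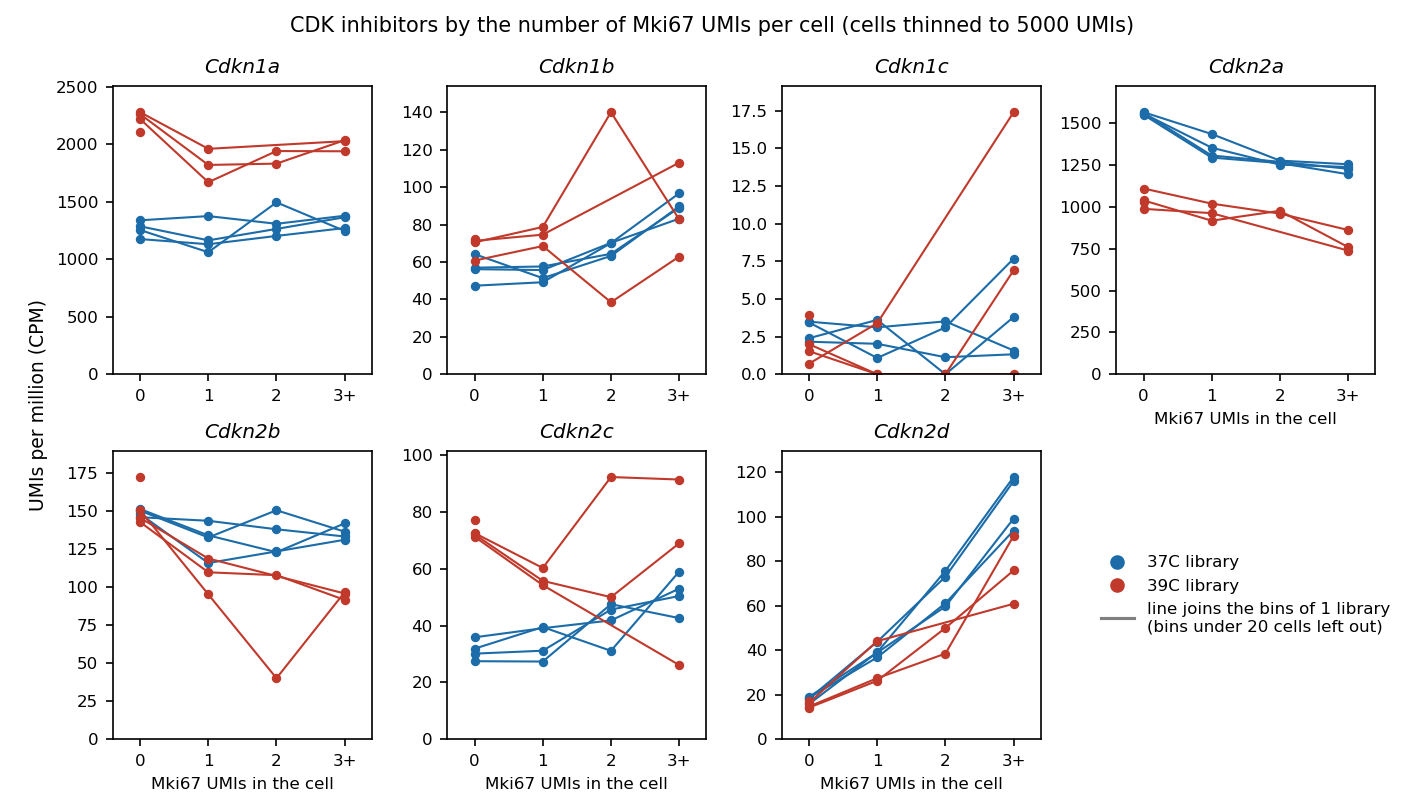
Level of each CDK inhibitor by the number of Mki67 UMIs in a cell, in CPM on a linear axis from 0, with a line for each library. Cells were thinned to 5000 UMIs, and shallower cells and bins under 20 cells were left out. Cdkn2d rises over the bins at both temperatures, Cdkn1b and Cdkn2c rise at 37 °C, and Cdkn2a falls.

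Most cells held transcripts of several inhibitors. At 5000 UMIs a cell, with shallower cells left out, 99.3 ± 0.153% of cells held a Cdkn2a UMI at 37 °C and 96.0 ± 0.562% at 39 °C. For Cdkn1a the shares were 94.0 ± 1.09% and 99.7 ± 0.182%. Cdkn2b was found in 48.1 ± 1.53% and 50.1 ± 2.68% of cells, Cdkn1b in 25.3 ± 0.409% and 27.4 ± 2.19%, and Cdkn1c in 1.18 ± 0.251% and 0.957 ± 0.658%. Cdkn2c was found in 15.8 ± 1.36% of cells at 37 °C and 27.8 ± 0.617% at 39 °C and Cdkn2d in 16.6 ± 1.34% and 7.88 ± 0.558%. Their order by size depended on the depth chosen. At 2000 UMIs a cell the differences of 39 °C from 37 °C were 13.7 percentage points for Cdkn1a, -9.66 for Cdkn2a, 5.81 for Cdkn2c and -4.76 for Cdkn2d. Without thinning, the differences for Cdkn1b and Cdkn2b turned to -2.20 and -4.87 percentage points, from 2.10 and 2.01. Cells with UMIs of 3 or more members made up 69.1 ± 0.369% at 37 °C and 74.3 ± 1.91% at 39 °C. At 37 °C Cdkn2c and Cdkn2d were seen in the same cell 1.28 ± 0.0491 times as often as their separate shares would give (263 cells), Cdkn1b and Cdkn2d 1.22 ± 0.0573 times (406 cells) and Cdkn1b and Cdkn2c 1.15 ± 0.0842 times (359 cells), which are the 3 members with higher levels in G2M than in G1 at 37 °C. At 39 °C the same pairs were at 0.970 ± 0.126 (165 cells), 1.05 ± 0.109 (181 cells) and 0.926 ± 0.0375 (566 cells). No cell type of these cultures is known to lack these genes, so free RNA could not be told apart from low expression, and the shares are given as a description.

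The levels in the classes can be combined by arithmetic with the shares of the classes. Mki67-positive cells held 62.4% of the UMIs at 37 °C and 7.28% at 39 °C. Had each class kept its pooled 37 °C level and only these shares changed, Cdkn2d would have gone from 45.0 to 18.7 CPM with no TMM scaling (18.3 with phases in place of Mki67 classes), against 16.4 measured. On the log2 scale that is -1.27 of a measured -1.45. For Cdkn2c, Cdkn1a and Cdkn2a the same arithmetic gave values far from those measured. Cdkn2c would have gone from 34.6 to 29.8 CPM against 72.2 measured, Cdkn1a from 1252 to 1280 against 2246, and Cdkn2a from 1383 to 1544 against 1024. Cdkn2b would have gone from 135 to 148 by Mki67 class and to 155 by phase, against 147 measured. By Mki67 class Cdkn1b would have gone from 58.9 to 56.1 CPM against 66.6 measured, and Cdkn1c from 2.84 to 2.74 against 1.70. These are sums of measured levels, not a test of a cause.

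The partners and regulators of the inhibitors were read from lists, by counts and medians beside the median of all genes (log2 fold change 0.02 between temperatures in all cells). In this comparison 62% of all genes passed, 31.5% higher and 30.5% lower, and the counts of each list are to be read beside those shares. Of the 11 inhibited kinases and cyclins, 10 were lower at 39 °C and 1 higher, with a median of -0.73. Those that fell most were Ccne1, the partner of Cdk2 at the start of S phase, from 19.0 ± 2.52 to 0.991 ± 0.0997 CPM, Ccna2, from 87.3 ± 10.0 to 6.25 ± 0.710, and Ccnb1, the mitotic cyclin, from 75.9 ± 3.97 to 9.24 ± 1.54 (adjusted p at most 1.98e-15 each). Of the 3 pocket proteins, the targets of Cdk4 and Cdk6, Rb1 rose by a log2 fold change of 0.89 and Rbl2 by 0.51, and Rbl1 fell by 0.52. Among 11 genes for the turnover of p21, p27 and p57, 6 were lower and 2 higher (median -0.13), with Cks1b falling by 1.96, Dtl by 1.76 and Skp2, which marks p27 for degradation, by 1.21 (adjusted p at most 2.64e-12). Of the 13 regulators of transcription, 7 were higher and 4 lower (median 0.28). Ezh2, the Polycomb enzyme that represses Cdkn2a, fell by 1.5, Cbx7, another Polycomb protein of that locus, rose by 1.41 at a low level (4.59 ± 0.389 to 12.3 ± 0.301 CPM), and E2f1 fell by 1.08.

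Of the 13 p53 targets other than Cdkn1a, 12 were higher at 39 °C and 0 lower, with a median of 0.57. Over all genes 31.5% were higher and 30.5% lower. In Mki67-negative cells the same counts, beside 29.7% and 27.1% of genes, had a median of 0.63 against 0.04 over all genes. Mdm2, the inhibitor of p53, rose from 678 ± 35.5 to 1160.3 ± 32.5 CPM (log2 fold change 0.77, adjusted p = 2.47e-10), Btg2 by 1.20 and Trp53inp1 by 1.01. Set by Mki67 class at 39 °C, 11 of the 13 were lower in positive cells and 0 higher, beside 14.9% of genes lower and 13.1% higher, with a median of -0.23 against -0.05 over all genes. Cdkn1a was lower there too. At 37 °C 7 were higher and 2 lower in positive cells, beside 19.8% and 15.3% of genes, with a median of 0.10 against 0.01, and Cdkn1a did not pass. At the Cdkn2a and Cdkn2b locus, 1 of 2 neighbours passed between temperatures, beside 62% of genes. It was Mtap, which fell by 0.92 (SE 0.0481, adjusted p = 3.62e-12). All 4 proliferation controls were lower at 39 °C, beside 30.5% of genes, with a median of -2.16. In the imprinted domain of Cdkn1c, 6 of 7 genes were tested, with 3 higher and 2 lower, beside 31.5% and 30.5% of genes. Tssc4 fell by 0.74 and Nap1l4 by 0.52, while Slc22a18 rose by 2.83 from a low level of 0.146 ± 0.0968 CPM to 1.05 ± 0.411.

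Across the 16 sums of library and Mki67 class, the genes whose log2 CPM followed a member most closely were taken from 8398 genes with a mean of at least 10 CPM. These are correlations over sums that share libraries, given as a description. Cdkn2d was most like Cdca8, Rangap1 and Kif23 (Pearson r 0.991, 0.989 and 0.988), of which Cdca8 and Kif23 act in the spindle midzone and cytokinesis. Cdkn1a was most like Tnrc6c, Ece1 and Vcan (0.993, 0.988 and 0.987), and Cdkn2c like Midn, Carhsp1 and Marcksl1 (0.952, 0.951 and 0.951). Cdkn2a was most like Aspa, Fam129a and Lima1 (0.973, 0.972 and 0.971), and Cdkn2b like Rab11a, Mri1 and Prdx6 (0.963, 0.950 and 0.944). Cdkn1b had the loosest matches, Cwf19l2, Zc3h13 and Son (0.896, 0.839 and 0.818), and Cdkn1c was under the level set for this comparison.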

How the data were processed

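Transcripts of single SN4741 cells were measured with 10x Chromium 3′ V3 chemistry in 8 libraries, 4 per temperature. The authors made the deposited matrices of UMI counts per gene and cell from reads aligned to mm10 with Cell Ranger 3.0.1, and no normalisation was applied to them. Following the study, cells with over 15% mitochondrial UMIs (334), under 200 genes (29) or over 6000 genes (440) were left out. The upper limit was the treatment of doublets, with 5000 genes as an alternative and no doublet caller run. Counts were summed per library, and per library and Mki67 class or phase (Seurat 5.3.0 scores, 42 of 43 S and 52 of 54 G2M genes found). Each sum was tested with edgeR 4.0.16 (R 4.3.3), TMM scaling, a minimum mean of 1 count per gene and Benjamini-Hochberg adjustment. Class and phase fits had the library as a block, so classes of 1 library were compared within it, and intervals are 95% with 6 residual degrees of freedom. Alternatives were DESeq2 1.42.0, 3 other scalings, 2 filters on genes, 4 on cells, thinning, other class rules and leaving out each library. Tables and figures used Python 3.11.15 (numpy 2.4.6, scipy 1.17.1, pandas 2.3.3, matplotlib 3.10.9).

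On simulated counts in which 200 genes were given a log2 change of 1, the test recovered 192 for the temperatures in all cells (15604 genes, 11 false calls), 187 for the Mki67 class at 37 °C (14597 genes, 3 false calls) and 190 for S against G1 at 37 °C (14044 genes, 13 false calls). The simulation gave every gene the same fixed spread with no library effects, and it changed no gene of very low counts. It therefore checks the code, and cannot show the recovery in these libraries or for a rare gene such as Cdkn1c. No 2 libraries of a group agreed within sampling noise (over 12 pairs, chi-square divided by its degrees of freedom was 2.74 to 20.2). The text names all members, up to 3 genes of each pathway list with the largest temperature effect among those passing, and the 3 genes most like each member with a mean of at least 5 CPM. The members, lists and tests were chosen with earlier results of these data known. Intervals of counts and shares cover counting error only, and free RNA was not removed.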

Additional observations from a re-analysis of the deposited data

Results flagged for a closer look

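Of 84 groups of 4 libraries looked at, 5 had a library far from the other 3 by Dixon's test, which flags about 1 group in 20 by chance. Cdkn2a was highest in 39 °C replicate 3 in all cells (1075 CPM, others 984 to 994), in Mki67-negative cells (1090 CPM in the fit of that class alone, others 1002 to 1014) and in G1 cells (1095 CPM, others 1006 to 1019), sets that share most of their cells. Cdkn1c was lowest in 39 °C replicate 2 in Mki67-negative cells (0.985 CPM, others 1.79 to 1.84). Cdkn1b was lowest in 39 °C replicate 4 in G1 cells (59.0 CPM, others 69.4 to 71.0).

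The difference between Mki67-positive and Mki67-negative cells was itself different at the 2 temperatures for 5 members by the interaction term in edgeR. The term, 39 °C minus 37 °C on the log2 scale, was -0.97 for Cdkn2c, -0.77 for Cdkn2d, -0.38 for Cdkn2b, -0.32 for Cdkn1a and -0.26 for Cdkn1b. The terms of Cdkn2b and Cdkn1a lost the call with Top2a and that of Cdkn2d with thinning, and Cdkn1b missed it in 12 of 21 alternatives. Cdkn2c was the 1 member among them whose class difference changed direction with both sides passing the test. Its 37 °C side was lost with Top2a (0.11, adjusted p = 0.193) and its 39 °C side with cells thinned to 5000 UMIs (-0.33, adjusted p = 0.0787).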

How the results depend on the processing

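Of 875 values for single members under alternatives other than leaving out a library, 795 kept direction and side of the threshold, 33 lost and 15 gained the call and 32 changed sign, and of 560 with a library left out the counts were 527, 15, 5 and 13. In all 45 changed sign, 2 of them from a passing value and 1 to one. The temperature effects of Cdkn1a, Cdkn1c, Cdkn2a, Cdkn2c and Cdkn2d in all cells passed under every alternative run. The cause of a change was not tested.

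Between temperatures in Mki67-negative cells, Cdkn2b (0.01) was at -0.0102 with DESeq2, -0.00978 with RLE, -0.00658 with upper quartile scaling, -0.0143 with filterByExpr, -0.00316 with a 10% mitochondrial limit, -0.0434 by phase and -0.0677 with Top2a. Cdkn2d (-0.05) was at 0.20 with Top2a, 0.0140 by phase and 0.00272 with 5000 genes as the limit. In Mki67-positive cells Cdkn1b (0.01) was at -0.15 for 2 or more Mki67 UMIs, -0.0185 with no cell filter and -0.0173 with no upper limit, and Cdkn1c (0.01) at -0.21, -0.15 and -0.14 there, and at -0.79 with Top2a (adjusted p = 0.00717), -0.46 thinned, -0.75 by phase and -0.43 with 5000 genes. For the class at 37 °C, Cdkn1a was at 0.0131 for 2 or more UMIs, Cdkn1b at -0.0215 (passing at 0.17 before) and Cdkn1c at -0.37 with Top2a, and Cdkn1c at -0.0439 thinned. At 39 °C Cdkn1b was at 0.0609 thinned and Cdkn1c at -0.16 with Top2a. For the interaction, Cdkn2a was at -0.0450 for 2 or more UMIs and Cdkn2b at 0.0584 with Top2a (passing at -0.38 before). In G2M against G1 at 39 °C Cdkn1b was at 0.17 thinned, 0.0113 with totals only and 0.00348 with the 10% limit, and in S against G1 Cdkn2a was at 0.0154 with totals only.

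Thinning lowered the genes passing from 4832 to 2164 (temperature, Mki67-positive cells), 5166 to 3441 and 4132 to 2420 (class at 37 and 39 °C), 1956 to 1041 (interaction), 6375 to 4103 and 5285 to 3489 (S), and 3750 to 2314 (G2M at 39 °C). DESeq2 gave 1266 for the interaction, and Top2a 8042 for the temperature in positive cells. Members passing as lower became 1 of 2 (Mki67-negative, thinned), 3 of 5 (S at 37 °C, DESeq2), and 3 and 2 of 5 for the interaction (thinned, Top2a). Those passing as higher became 1 in place of 3 for the class at 37 °C (Top2a), 2 in place of 1 at 39 °C (10% limit), and 1 in place of 0 for the interaction (RLE, upper quartile, totals only, filterByExpr, Top2a). Shares of cells without thinning moved to -2.20 for Cdkn1b and -4.87 percentage points for Cdkn2b.

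With each library left out in turn, values that changed sign ranged from -0.0511 to 0.0528 (Cdkn1b) and -0.97 to 0.47 (Cdkn1c) between temperatures in Mki67-positive cells, -0.0147 to 0.0288 (Cdkn2b) in negative cells, and -0.0919 to 0.0168 for Cdkn1b in G2M at 39 °C. For Cdkn1c they were -0.00172 to 0.26 and -0.0194 to 1.42 for the class at 37 and 39 °C, -0.14 to 1.28 for the interaction and -0.55 to 0.0419 for S at 37 °C. Members passing as higher ranged from 0 to 1 for the interaction and for S at 39 °C, and from 1 to 2 for the class and G2M at 39 °C.

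The labels link libraries of different temperatures by replicate number alone. The correlation of same-numbered libraries ran from -0.12 to 0.29, 1 of 4 over 0.1, and 1 of 4 libraries correlated best with its own number. With so few libraries this cannot show whether same-numbered libraries shared a culture or a day. The replicate block changed no member's call (Cdkn2d -1.49, 9617 genes passing in all cells). Depth limits Cdkn1c most, with 22 UMIs in Mki67-positive cells at 39 °C.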
